A study of Homo sapiens and Homo sapiens
Mus with 12 samples.

Results

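The integrin subunit genes ITGA2, ITGA3, ITGA5, ITGA6, ITGAV, ITGB1, ITGB3, ITGB4, ITGB5 and ITGB8 were followed by RNA-seq in UM-UC-3 cells, a human line from an advanced bladder cancer, with or without knockdown (KD) of CDH11, which encodes the adhesion molecule cadherin-11. The 10 genes were taken by symbol. All 10 are among the 21479 genes listed for the cultured cells, and 9 are among the 26813 human genes listed for the xenograft tumors, where ITGB4 has no row. Cultured cells, precultured for 24 h before RNA extraction, gave 3 libraries each of shCtrl, sh#1 and sh#2. The tumors gave 5 libraries each, grown under the skin of 5-week-old nude mice from cells injected in Matrigel, a mouse basement membrane extract, and taken at 4 weeks. All groups were infected with a lentiviral vector that also makes GFP. The shCtrl cells carried a non-silencing hairpin, and sh#1 and sh#2 cells each carried a different hairpin against CDH11. Infected cells were sorted on GFP, so each group was a sorted pool and not a clone, and nude mice lack mature T cells but keep other host cells.

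Integrins are receptors made of an alpha and a beta subunit that cross the plasma membrane together. They bind matrix proteins outside the cell and, through talin, kindlin and other adaptors, actin inside it, and the pairing decides the ligand. ITGA3 and ITGA6 pair with ITGB1 to bind laminins, and ITGA6 also pairs with ITGB4 in the hemidesmosomes that anchor epithelial cells, including the urothelium, to the basement membrane. ITGA2 with ITGB1 binds collagen and ITGA5 with ITGB1 binds fibronectin. ITGAV pairs with ITGB1, ITGB3, ITGB5 or ITGB8 to bind vitronectin, fibronectin or latent TGF-beta through an RGD motif.

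The counts on genes were 2273182 to 2777019 per cultured library and 414849 to 1248977 human counts per tumor, the lowest in sh#1 tumor 1. CDH11 itself had 2, 4 and 4 counts in the shCtrl cultures, 0, 0 and 1 with sh#1 and 1, 2 and 0 with sh#2, too few for a test. In separate measurements the study reported significantly less CDH11 mRNA and protein in its KD cells than in shCtrl cells. In tumors the CDH11 level was 16.6 ± 7.65 CPM in shCtrl, 4.99 ± 3.18 in sh#1 and 10.1 ± 5.72 in sh#2 (SD, n = 5 each), where CPM is the count scaled to a common library size after TMM normalization, which edgeR reports as CPM. CDH11 was lower in sh#1 tumors by edgeR's quasi-likelihood test (log2 fold change -1.67, SE 0.40, adjusted p = 0.026), the value with sh#2 was -0.73 (adjusted p = 0.347), and that for both hairpins together was -1.13 (SE 0.33, adjusted p = 0.112), which did not pass. In sh#2 tumor 2 CDH11 was at 18.8 CPM, above the shCtrl mean. Of the markers of epithelial and mesenchymal cells, EPCAM and CDH1 were at 0 counts in every cultured library, KRT18 was at 125 to 194 CPM and vimentin (VIM) at 2139.8 to 4331 CPM. KRT8 was at 105 to 143 CPM, and of the other epithelial markers UPK1A reached the highest level, 9.33 CPM. The other mesenchymal markers in culture were ZEB1 at 86.5 to 114 CPM, CDH2 at 24.8 to 41.7, FN1 at 2.46 to 13.1 and SNAI2 at 0.787 to 11.7. Mouse genes took 10.4% to 14.4% of the counts in shCtrl tumors, 10.4% to 30% in sh#1 tumors and 13.0% to 18.8% in sh#2 tumors.

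The 2 members that passed the test in a tumor comparison, ITGA6 and ITGAV, lie on chromosome 2 of hg38. ITGA6 spans chr2:172427354-172506459 and ITGAV chr2:186590010-186680901, both on the plus strand. The 250 bases before the canonical RefSeq start of each (GRCh38.p14) are shown because both genes were higher in sh#2 tumors, with the cores of the hypoxia response element, ACGTG and GCGTG, in capitals on either strand. The motif was chosen with the values known.
ITGA6, chr2:172427336-172427585, plus strand: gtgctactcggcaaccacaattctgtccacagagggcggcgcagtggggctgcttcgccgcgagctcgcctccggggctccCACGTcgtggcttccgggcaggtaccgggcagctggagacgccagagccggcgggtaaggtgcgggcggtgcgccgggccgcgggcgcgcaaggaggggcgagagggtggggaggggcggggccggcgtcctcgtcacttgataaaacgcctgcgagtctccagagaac
ITGAV, chr2:186589806-186590055, plus strand: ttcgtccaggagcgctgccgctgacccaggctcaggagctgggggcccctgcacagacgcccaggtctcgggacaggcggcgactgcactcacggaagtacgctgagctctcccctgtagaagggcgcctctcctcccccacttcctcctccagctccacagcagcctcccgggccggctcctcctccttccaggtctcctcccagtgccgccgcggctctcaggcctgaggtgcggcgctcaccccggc
The ITGA6 window holds ACGTG on the minus strand, written CACGT here, and the ITGAV window holds neither core. Of all 35116 RefSeq windows of this length, 43.2% hold at least 1 of the cores and 18.5% hold ACGTG, and 7 of the 10 members have a window. The other ITGA6 window, chr2:172427086-172427335, holds 2 matches to ACGTG and 1 to GCGTG over both strands. Windows of ITGA2, ITGA5, ITGB5 and ITGB8, which were not called in tumors, hold GCGTG. These matches describe the letters only.

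In shCtrl cultures ITGB1, the shared beta subunit, was the most abundant member per length of its canonical transcript, at 282 ± 0.155 CPM per kb (SD, n = 3). The laminin receptor subunit ITGA3 followed at 39.8 ± 3.06 CPM per kb and ITGB5 at 28.7 ± 1.02. Below these came ITGA6 at 7.46 ± 0.308 and ITGA5 at 6.52 ± 0.979 CPM per kb, whose libraries overlapped, and then ITGAV at 3.68 ± 0.641. ITGA2 at 1.33 ± 0.492 and ITGB3 at 1.07 ± 0.161 CPM per kb also overlapped. ITGB8 had at most 1 count in any cultured library, and ITGB4 had 0 counts in all of them, which allows up to 1.08 to 1.32 CPM per library (3 counts, counting error only). The partner of ITGA6 in hemidesmosomes was therefore below the limit of these libraries. The low-count filter kept 8 members in culture (all but ITGB4 and ITGB8) and 7 in tumors (ITGB3 also fell out), and the members kept are described as those tested.

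**Figure D1:**
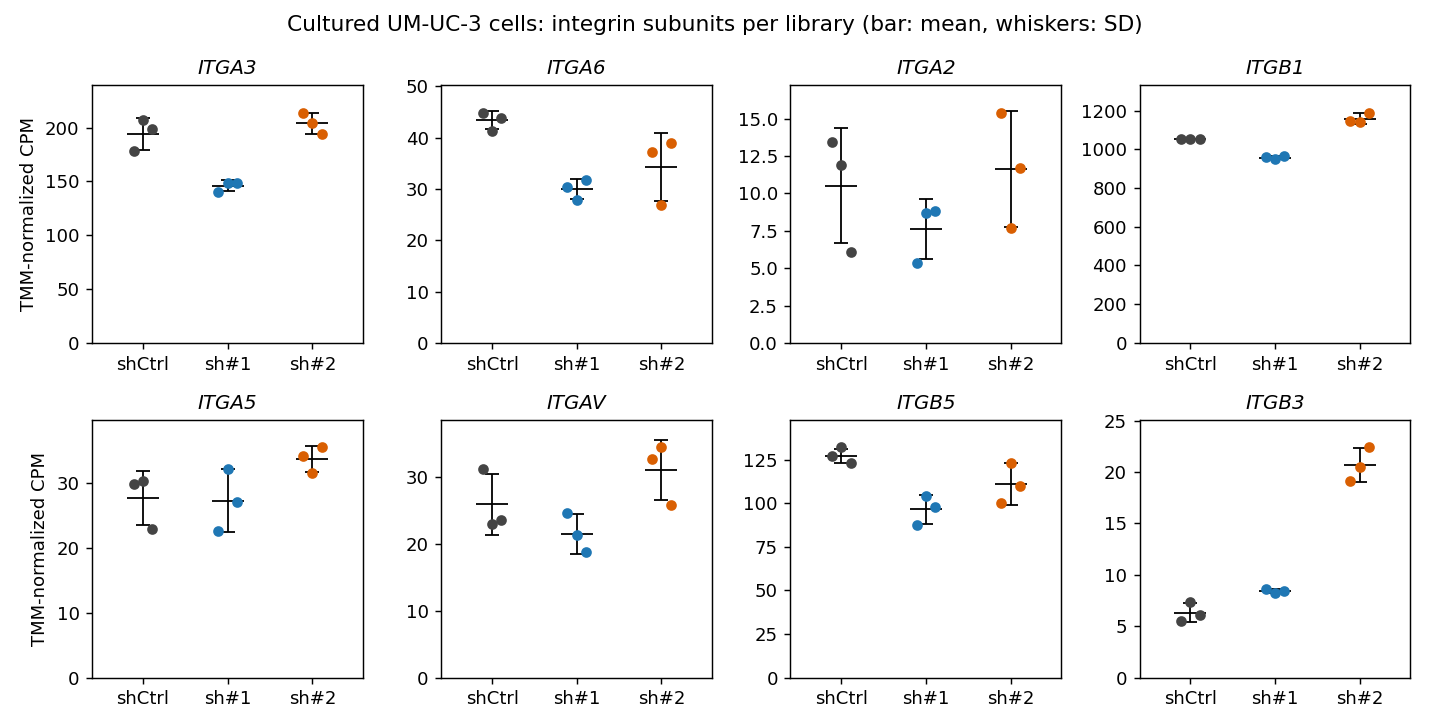
TMM-normalized CPM (y axis, from 0) of the 8 members tested in cultured cells, with 1 point per library (n = 3 per group), a bar at the mean and whiskers of 1 SD. The sh#2 libraries of ITGB3 lie at 19.1 to 22.4 CPM, above all others, and the ITGA6 libraries of both hairpins lie below the 3 shCtrl libraries.

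In culture, members were called with each hairpin. With sh#1 the laminin receptor subunits ITGA3 and ITGA6 and the vitronectin receptor subunit ITGB5 were lower than in shCtrl, by between 0.40 and 0.53 on the log2 scale. With sh#2 the beta subunit ITGB3 was higher by 1.70 on that scale and ITGB1 by 0.14, and ITGA3 was at the shCtrl level within its error. Against shCtrl, 3 of the 8 tested members were lower and 0 higher with sh#1 at an adjusted p under 0.05, where 22.4% of all 9859 tested genes were called. With sh#2, 2 were higher and 0 lower, where 38.3% of all genes were called. With upper quartile normalization the sh#2 split became 1 higher (ITGB3) and 2 lower (ITGA6 and ITGB5). For both hairpins together, 1 was higher and 1 lower, where 17.4% of all genes were called. This split became 0 higher and 2 lower (ITGA6 and ITGB5) with upper quartile normalization and with at least 10 counts in every library. Between the hairpins, 4 were lower in sh#1 and 0 higher, where 24.7% of all genes were called. The median log2 fold change of the tested members was -0.34 with sh#1 and 0.15 with sh#2, beside -0.01 for all genes in both. Nothing in the labels says that the libraries of a group came from separate cultures, so the p-values measure the spread between these libraries, which may be technical.

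Among laminin receptor subunits, ITGA3 was at 178, 207 and 199 CPM in the shCtrl cultures, at 140, 149 and 149 with sh#1 and at 214, 204 and 194 with sh#2. All sh#1 libraries lay below all others, and the sh#2 libraries overlapped with shCtrl. The difference of sh#1 from shCtrl was -0.41 (log2, SE 0.08, edgeR adjusted p = 3.97e-05), that of sh#2 from shCtrl was 0.07 (95% interval -0.08 to 0.22) and that between sh#1 and sh#2 was -0.48 (SE 0.08, adjusted p = 3.14e-06).

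ITGA6 was at 44.9, 41.4 and 43.8 CPM in shCtrl, at 30.3, 27.8 and 31.7 with sh#1 and at 37.3, 26.8 and 39.0 with sh#2. All 6 KD libraries lay below the 3 shCtrl libraries. ITGA6 fell by 0.53 with sh#1 (log2, SE 0.14, edgeR adjusted p = 0.00436), and the difference with sh#2 was -0.34 (SE 0.14, adjusted p = 0.0592). For both hairpins together it was -0.43 (SE 0.14, adjusted p = 0.0378). The call for both hairpins was lost when any shCtrl library (adjusted p = 0.128, 0.0847 and 0.122), any sh#1 library (0.0572, 0.0685 and 0.0539) or sh#2 replicate 2 (0.0716) was left out, with edgeR log2 fold changes of -0.47 to -0.39. DESeq2 gave an adjusted p of 0.0577 and edgeR without the low-count filter 0.053, within a range of 0.00417 to 0.128 over 16 alternatives. The sh#1 call held without each library. With sh#2 the difference passed in 4 of 15 alternatives (lowest adjusted p = 0.034). These were upper quartile normalization, at least 10 counts in every library, the replicate block and the fit without sh#2 replicate 3.

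ITGA2, the collagen-binding subunit, was at 13.4, 11.9 and 6.10 CPM in shCtrl, at 5.33, 8.69 and 8.81 with sh#1 and at 15.4, 7.65 and 11.7 with sh#2. The 3 groups overlapped and no comparison passed the threshold. With 13 to 34 counts per library, the 95% interval of the log2 difference for both hairpins ran from -0.77 to 0.51.

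ITGB1 had the highest counts of the members, at 2180 to 2761 per cultured library. Its mean was 957 ± 8.16 CPM with sh#1 and 1159 ± 26.9 CPM with sh#2 (SD, n = 3 each). All sh#1 libraries lay below and all sh#2 libraries above the shCtrl libraries. The log2 difference from shCtrl was -0.14 with sh#1 (SE 0.06, edgeR adjusted p = 0.0653) and 0.14 with sh#2 (SE 0.06, adjusted p = 0.0415), and that between sh#1 and sh#2 was -0.28 (SE 0.06, adjusted p = 0.000114). The difference with sh#1 passed with upper quartile normalization (0.0379), DESeq2 (0.0499) and at least 10 counts in every library (0.0352). The call with sh#2 was lost without any single shCtrl or sh#2 library (adjusted p = 0.0522 to 0.12) with upper quartile normalization (0.18), without the low-count filter (0.0524) and with at least 10 counts in every library (0.0854). For both hairpins together the difference was 0.01 (95% interval -0.19 to 0.21).

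Of the alpha subunits that bind RGD motifs, ITGA5 was at 29.9, 30.3 and 22.9 CPM in shCtrl, at 22.6, 32.2 and 27.1 with sh#1 and at 34.1, 31.5 and 35.5 with sh#2. All sh#2 libraries lay above shCtrl, but the difference of 0.29 did not pass the threshold (edgeR adjusted p = 0.159). ITGAV was at 31.1, 23.0 and 23.6 CPM in shCtrl, at 24.6, 21.3 and 18.7 with sh#1 and at 32.7, 34.4 and 25.8 with sh#2. Each hairpin overlapped with shCtrl and all sh#1 libraries lay below all sh#2 libraries, with a log2 difference of -0.53 between them (SE 0.17, edgeR adjusted p = 0.0187). That call was lost without sh#1 replicate 3 (adjusted p = 0.113), sh#2 replicate 1 (0.069) or sh#2 replicate 2 (0.106) and with DESeq2 (0.0925).

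ITGB3 and ITGB5 are the other beta partners of ITGAV that could be tested in culture, and both bind vitronectin with it. ITGB3 was at 5.51, 7.38 and 6.10 CPM in shCtrl, at 8.61, 8.26 and 8.45 with sh#1 and at 19.1, 20.5 and 22.4 with sh#2. The 3 groups did not overlap, and the sh#2 libraries were the highest. Its log2 difference from shCtrl was 1.70 with sh#2 (SE 0.24, edgeR adjusted p = 6.67e-08) and 0.42 with sh#1 (SE 0.28, adjusted p = 0.307), and that between sh#1 and sh#2 was -1.29 (SE 0.23, adjusted p = 1.64e-05). Both calls held in all 15 alternatives. For both hairpins together the value was 1.17 (SE 0.38, adjusted p = 0.0494), and this call was lost without any shCtrl library (adjusted p = 0.168, 0.109 and 0.154) or any sh#2 library (0.0834, 0.0784 and 0.0715), with upper quartile normalization (0.0512), without the filter (0.0535) and with at least 10 counts in every library (0.0508). ITGB3 had 14 to 46 counts per cultured library.

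ITGB5 was at 127, 132 and 123 CPM in shCtrl, at 87.3, 104 and 97.9 with sh#1 and at 99.9, 123 and 110 with sh#2. All KD libraries lay below the shCtrl libraries. ITGB5 fell by 0.40 with sh#1 (log2, SE 0.09, edgeR adjusted p = 0.000707), while the differences of -0.20 with sh#2 (adjusted p = 0.0827) and -0.30 for both hairpins (adjusted p = 0.0564) did not pass. The difference for both hairpins passed with upper quartile normalization (0.0362), at least 10 counts in every library (0.0408), a fit of 3 groups (0.00202) and without sh#2 replicate 2 (0.0251), and that with sh#2 passed with upper quartile normalization (0.0383) and without sh#2 replicate 2 (0.0343). Counted against each other without any normalization, ITGB3 held 4.73% ± 0.572 of the ITGB3 and ITGB5 counts in shCtrl cultures, 8.10% ± 0.815 with sh#1 and 15.8% ± 1.37 with sh#2 (SD, n = 3 each). In tumors the share was 3.37% ± 2.76 in shCtrl, 3.55% ± 1.54 in sh#1 and 4.89% ± 2.39 in sh#2 (SD, n = 5 each), and the groups overlapped.

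**Figure D2:**
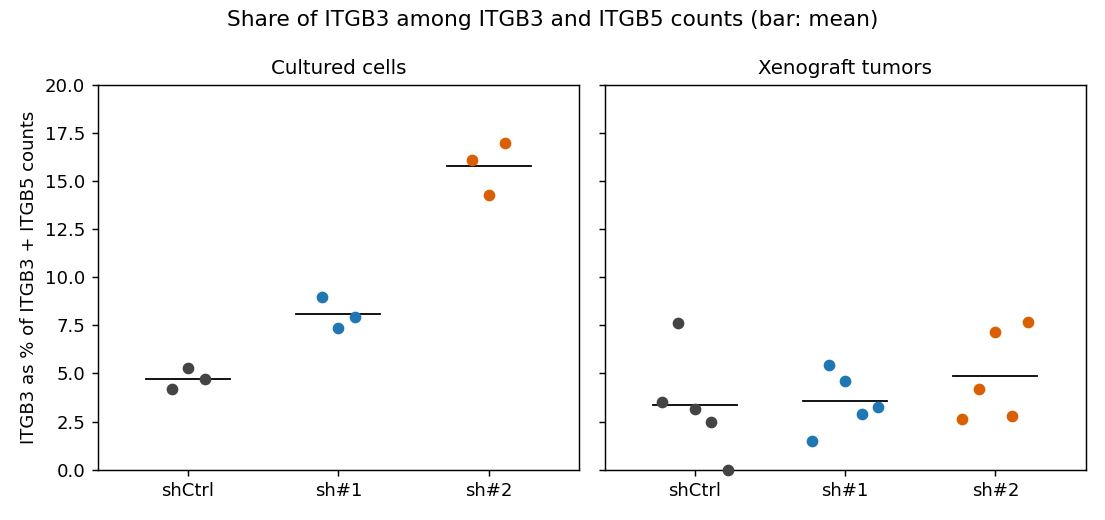
ITGB3 as a percentage of ITGB3 plus ITGB5 read counts (y axis, from 0), with 1 point per library and a bar at the group mean, in cultured cells (n = 3 per group) and tumors (n = 5 per group). In culture the group means were 4.73%, 8.10% and 15.8%, and in tumors 3.37%, 3.55% and 4.89%.

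In tumors the sh#2 group held the higher values of ITGA6 and ITGAV, and no member was called for both hairpins together. At an adjusted p under 0.1, 0 of the 7 tested members passed edgeR's test for CDH11 KD against shCtrl, where 1.51% of all 9184 tested human genes were called. In this comparison 1 member, ITGA6, had an unadjusted p under 0.05, and DESeq2 called 0. With sh#2, 2 members were higher and 0 lower, where 2.68% of all genes were called. With sh#1, 0 passed, where 1.48% of all genes were called, with 1 member at an unadjusted p under 0.05 and 1 call by DESeq2, ITGA2 in both cases. Between the hairpins, 1 member was lower in sh#1 and 0 higher, where 1.19% of all genes were called. Whether the 5 tumors of a group came from 5 mice is not given in the sources used here. Each of these fits shared its shCtrl libraries with the others. In bulk tumors, fewer cells that express a gene and less RNA per cell cannot be told apart. The tumor libraries were listed in 3 library mixes of 1 group each, so mix and group cannot be told apart either.

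**Figure D3:**
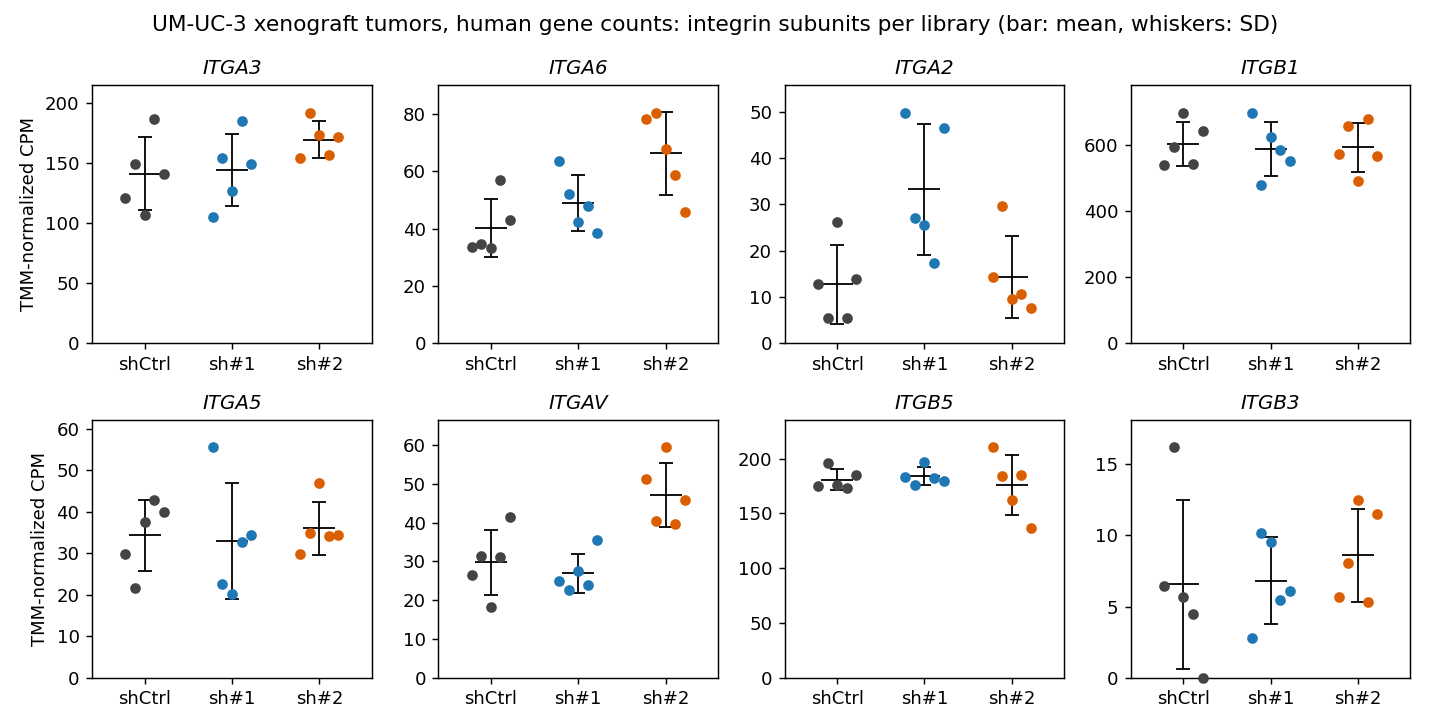
TMM-normalized CPM (y axis, from 0) of human counts for the same 8 genes in xenograft tumors, with 1 point per tumor (n = 5 per group), a bar at the mean and whiskers of 1 SD. The sh#2 tumors of ITGAV lie at 39.5 to 59.4 CPM against 22.6 to 35.4 CPM in sh#1 tumors, and ITGB3 is shown although it was too low to be tested.

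ITGA6 was at 33.7, 34.6, 33.1, 56.9 and 42.9 CPM in the shCtrl tumors, at 63.8, 52.0, 42.4, 47.8 and 38.4 in sh#1 tumors and at 78.2, 80.6, 68.0, 58.7 and 45.8 in sh#2 tumors. All 5 sh#2 tumors lay above the shCtrl mean, and the lowest of them lay below the highest shCtrl tumor. The log2 difference from shCtrl was 0.73 with sh#2 (SE 0.18, edgeR adjusted p = 0.0303), 0.23 with sh#1 (SE 0.19, adjusted p = 0.695) and 0.50 for both hairpins together (SE 0.18, adjusted p = 0.205). The sh#2 call was lost without shCtrl tumor 1 (adjusted p = 0.116), sh#2 tumor 1 (0.101) or sh#2 tumor 2 (0.116) and with the mouse-to-human ratio of each tumor added as a covariate (0.127), with log2 values of 0.62 to 0.67.

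Mouse Itga6, from the host cells of the same tumors, reached its highest values in sh#2 tumors too. It had 12, 11, 4, 6 and 5 counts in the mouse table of the shCtrl tumors, 9, 2, 8, 6 and 2 in sh#1 tumors and 5, 12, 30, 16 and 8 in sh#2 tumors. Its median was 51.5 CPM of the mouse counts in shCtrl, 50.6 in sh#1 and 84.7 in sh#2 tumors. The summed level of 4 mouse fibroblast markers (Col1a1, Col1a2, Pdgfra and Dcn) was 5460.1 to 13872 CPM of the mouse counts in shCtrl, 1051 to 9913 in sh#1 and 4081 to 16339.5 in sh#2 tumors, and that of 2 mural markers (Acta2 and Rgs5) was 227 to 475, 44.9 to 442 and 285 to 689. Myeloid markers (4 genes) were at 289 to 765, 184 to 1208 and 271 to 627, and endothelial markers (3 genes) at 176 to 241, 92 to 284 and 198 to 371. The part of these host cells in the result was not tested. How reads were divided between the species is not given in the sources used here, and the part of cross-assigned reads in the ITGA6 result was not tested. Over all tumors mouse counts made up 17.3% of the ITGA6 counts of both species, 12.8% for ITGAV, 21.8% for ITGA5, 6.71% for ITGB1, 5.50% for ITGB5, 4.33% for ITGA2 and 0.405% for ITGA3.

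**Figure D4:**
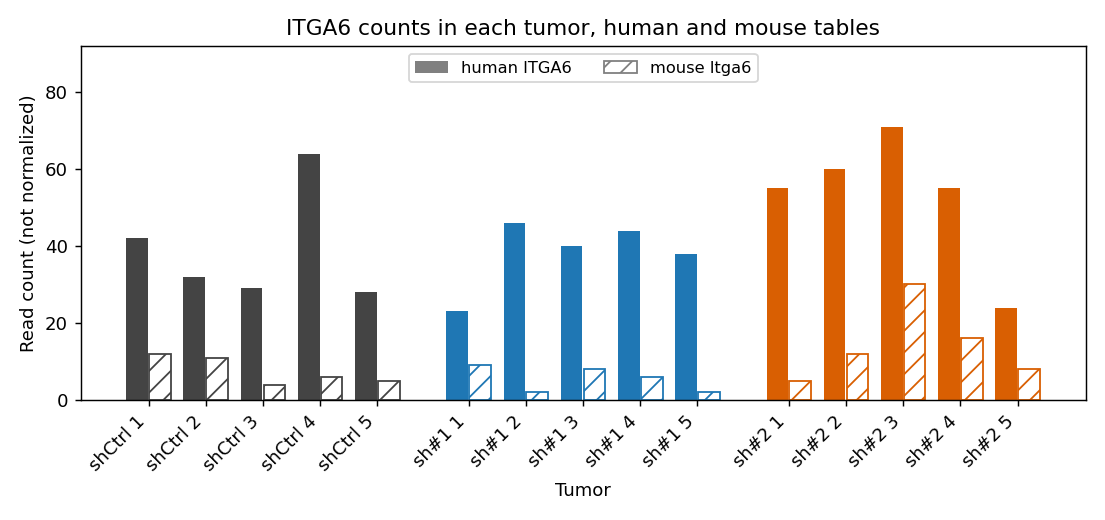
Read counts without normalization (y axis, from 0) of human ITGA6 (filled bars) and mouse Itga6 (hatched bars) in each of the 15 tumors. Human counts range from 23 to 71 and mouse counts from 2 to 30, with the highest of both in sh#2 tumor 3.

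ITGAV was at 26.5, 31.4, 18.2, 31.1 and 41.4 CPM in shCtrl tumors, at 25.0, 22.6, 27.6, 23.9 and 35.4 in sh#1 tumors and at 51.2, 40.3, 59.4, 39.5 and 45.8 in sh#2 tumors. All sh#2 tumors lay above all sh#1 tumors, and 1 shCtrl tumor reached into the sh#2 range. The log2 difference of sh#2 from shCtrl was 0.70 (SE 0.19, edgeR adjusted p = 0.0591), and that of sh#1 from sh#2 was -0.80 (SE 0.20, adjusted p = 0.0578). The first call was lost without shCtrl tumors 1 (adjusted p = 0.163), 3 (0.155) or 4 (0.107), without sh#2 tumors 1 (0.146) or 3 (0.211) and with the mouse ratio as a covariate (0.117). The second was lost without sh#1 tumors 2 (0.161), 3 (0.102) or 4 (0.145) and without sh#2 tumors 1 (0.145) or 3 (0.196). Mouse Itgav had 0 to 9 counts per tumor, with medians of 3, 5 and 6 in shCtrl, sh#1 and sh#2.

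ITGA2 was at 12.8, 5.41, 26.2, 5.34 and 13.8 CPM in shCtrl tumors, at 49.9, 27.1, 25.5, 17.4 and 46.5 in sh#1 tumors and at 14.2, 29.6, 9.58, 10.7 and 7.64 in sh#2 tumors. All 5 sh#1 tumors lay above the shCtrl mean, and they overlapped with shCtrl through shCtrl tumor 3. The log2 difference of sh#1 from shCtrl was 1.35 (SE 0.41, 95% interval 0.48 to 2.22) and did not pass the threshold (edgeR adjusted p = 0.167), with 4 to 46 counts per tumor. It passed with DESeq2 (adjusted p = 0.0566), without the low-count filter (2e-04) and without shCtrl tumor 3 (0.0128), sh#1 tumor 4 (0.0916) or sh#2 tumor 2 (0.0713). Mouse Itga2 had 0 to 3 counts per tumor.

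ITGA3, ITGA5, ITGB1 and ITGB5 passed in no tumor comparison. Their log2 differences for both hairpins were 0.16 for ITGA3 (95% interval -0.10 to 0.42), -0.02 for ITGA5 (-0.41 to 0.37), -0.03 for ITGB1 (-0.24 to 0.17) and -0.01 for ITGB5 (-0.21 to 0.20). ITGB1 averaged 604 ± 67.1 CPM in shCtrl, 588 ± 82.5 in sh#1 and 594 ± 74.8 in sh#2 tumors, and ITGB5 averaged 181 ± 9.51, 184 ± 8.04 and 176 ± 27.4 CPM (SD, n = 5 each). The groups overlapped for both genes. The divergent transcript ITGB1-DT, which overlaps ITGB1 on the other strand, had 9 to 28 counts per tumor against 252 to 672 of ITGB1, and ITGA6-AS1 and ITGB5-AS1 had at most 2. Whether strand was used in counting is not given in the sources used here, so reads of overlapping genes on opposite strands may not have been told apart.

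ITGB3 had 0 to 15 and ITGB8 0 to 5 human counts per tumor. The ITGB3 level was 6.42, 16.2, 5.70, 4.45 and 0 CPM in shCtrl, 2.77, 10.2, 9.55, 5.44 and 6.06 in sh#1 and 5.69, 8.06, 12.5, 5.34 and 11.5 in sh#2 tumors. The groups overlapped. Fitted without the low-count filter, the log2 difference of sh#2 from shCtrl was 0.29 (edgeR adjusted p = 0.822). Mouse Itgb3 had 1 to 7 counts in sh#2 tumors and 0 to 2 in shCtrl tumors.

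**Figure D5:**
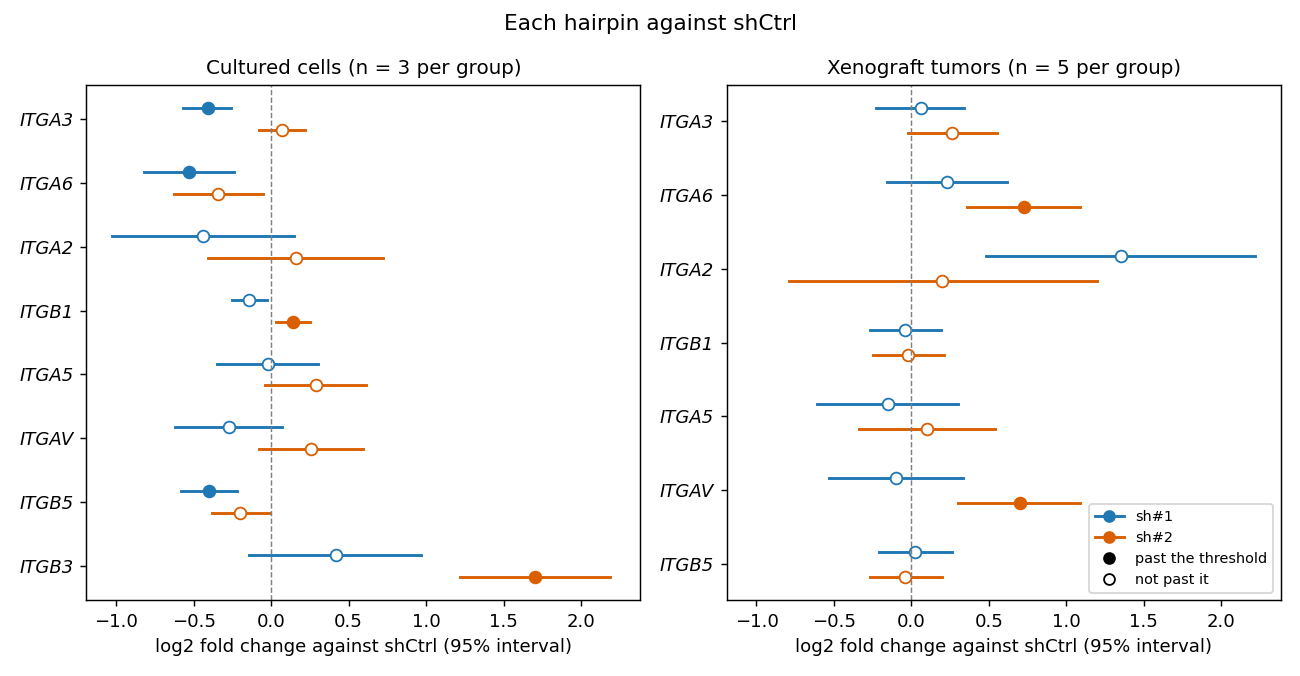
Log2 fold change against shCtrl (x axis, points) with its 95% interval (lines) for each hairpin and each tested member, in cultured cells (n = 3 per group) and tumors (n = 5 per group). Filled points passed the threshold of adjusted p under 0.05 in culture or 0.1 in tumors, and ITGA6 lies below 0 in culture and above 0 in tumors for both hairpins.

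The effect of the hairpins on ITGA6 differed between the systems. In 1 fit over all 24 libraries, the mean effect of the hairpins on ITGA6 was 0.89 higher in tumors than in culture on the log2 scale (SE 0.21, 95% interval 0.47 to 1.31, edgeR adjusted p = 0.00266). It was the only member of the 8 tested for this difference that passed, where 11.9% of all 9594 genes tested passed. The call held in all 31 alternatives run for it, which were 24 fits without a single library and 7 other settings, with adjusted p from 0.000285 to 0.0102. With the mouse-to-human ratio of the tumors as a covariate the difference was 0.81 (adjusted p = 0.00736). ITGB3 had a difference of -0.86 (SE 0.47, adjusted p = 0.239), ITGA3 of 0.32 (SE 0.16, adjusted p = 0.184) and ITGB5 of 0.28 (SE 0.14, adjusted p = 0.185). The sequencing instrument and the processing by the authors changed with the system, and they cannot be told apart from it.

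Of the 16 other integrin subunits, only ITGAE and ITGB2 had enough counts to be tested in culture, and only ITGAE in tumors. ITGB2, the beta subunit of the leukocyte integrins, was at 13.7 ± 2.04 CPM in shCtrl, 19.3 ± 5.33 with sh#1 and 35.8 ± 10.6 with sh#2 cultures (SD, n = 3 each). It was higher with sh#2 by 1.38 on the log2 scale (SE 0.21, edgeR adjusted p = 1.55e-06) and had 0 to 2 human counts per tumor. For both hairpins together 0 of these 2 passed edgeR's test, with 1 at an unadjusted p under 0.05 and 1 call by DESeq2. ITGAE, which binds E-cadherin with ITGB7, did not pass in any comparison. ITGB6, ITGA1 and ITGA9 had at most 4 counts in any cultured library and at most 1 in any tumor.

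Among 33 genes for matrix ligands, 17 were tested in culture, and 3 were higher and 2 lower in CDH11 KD cells than in shCtrl, with a median log2 fold change of -0.04 beside 0 for all genes and beside the 17.4% of all genes called. CCN1, a secreted ligand of ITGAV integrins, rose from 166 ± 3.55 CPM in shCtrl to 622 ± 99.5 in KD cells (n = 3 and 6, log2 fold change 1.90, SE 0.13, edgeR adjusted p = 1.41e-08). CCN2, its relative, rose by 1.39 (adjusted p = 5.41e-08) and LAMB3, a chain of laminin-332, by 0.91 (adjusted p = 0.0211). LAMA5, a chain of laminin-511, fell by 0.88 (adjusted p = 0.0113), and COL4A2, a chain of basement membrane collagen, fell by 0.56 (adjusted p = 0.0231). LAMB3 passed with sh#1 (1.17, adjusted p = 0.000125) but not with sh#2 (0.55, adjusted p = 0.0944). COL4A2 also passed with sh#1 (-0.77, adjusted p = 0.000236) but not with sh#2 (-0.37, adjusted p = 0.0581). For sh#1 the counts were 3 higher and 5 lower, where 22.4% of all genes were called, and for sh#2 they were 5 and 1, where 38.3% were called.

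Of 45 cytoplasmic adaptors, kinases and trafficking genes, 37 were tested in culture, and 0 were higher and 2 lower in KD cells, with a median log2 fold change of -0.07, where 17.4% of all genes were called. GIT1, a scaffold at focal adhesions, fell by 0.91 (log2, SE 0.17, edgeR adjusted p = 0.00131), and ARF6, a GTPase of integrin recycling, fell by 0.53 (SE 0.11, adjusted p = 0.00288). For sh#1 the counts were 0 higher and 7 lower (22.4% of all genes called), and for sh#2 they were 4 and 9 (38.3% of all genes called).

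All 15 membrane partners were tested in culture, and 3 were higher and 4 lower in KD cells, with a median of -0.04, where 17.4% of all genes were called. PLAUR, the urokinase receptor, rose by 1.49 (log2, SE 0.11, edgeR adjusted p = 4.75e-08), SLC3A2, the CD98 heavy chain that binds beta subunits, by 1.11 (adjusted p = 0.000118) and BSG, which encodes basigin, by 0.47 (adjusted p = 0.0294). PLEC, which encodes the plectin that ties ITGB4 to keratin filaments, fell from 241 ± 4.72 CPM in shCtrl to 108 ± 20.7 in KD cells (n = 3 and 6, log2 fold change -1.14, SE 0.13, adjusted p = 9.13e-06). TSPAN4 and CD81, which encode tetraspanins, fell by 0.46 (adjusted p = 0.0091) and 0.42 (adjusted p = 0.00762). For sh#1 the counts were 3 higher and 7 lower, with a median of -0.3 (22.4% of all genes called). For sh#2 they were 6 and 4, with a median of 0.1 (38.3% of all genes called).

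In tumors, 64 genes of these lists and of the other subunits were tested. For CDH11 KD 0 passed edgeR's test, where 1.51% of all 9184 tested genes were called. In this comparison 8 had an unadjusted p under 0.05, and DESeq2 called 2. Of the 13 list genes named from culture, all but COL4A2 were tested in tumors. LAMB3 had the highest log2 difference for KD there, at 1.62 (SE 0.45, adjusted p = 0.136), with 1.70 for sh#1 (adjusted p = 0.192) and 1.54 for sh#2 (adjusted p = 0.197). CCN1 (SE 0.24) and PLAUR (SE 0.14) were both at 0.38. The others lay between -0.31 for BSG (SE 0.11) and 0.04 for ARF6 (SE 0.11). With sh#2, 1 gene was higher and 0 lower, where 2.68% of all genes were called. The gene was FLNA, which encodes the actin crosslinker filamin A that binds beta tails, at 0.36 (SE 0.10, adjusted p = 0.0723). Between sh#1 and sh#2 tumors, where 1.19% of all genes were called, FERMT1, which encodes a kindlin, was higher in sh#1 by 0.52. FLNA (-0.39) and LAMB1, a laminin chain (-0.65), were lower. These 3 genes were chosen after their values were seen.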

How the data were processed

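RNA-seq covered 9 cultured libraries and 15 xenograft tumors. The authors deposited read counts per gene without normalization, for human genes in both systems and for mouse genes in the tumors. Per the study's methods, cultured reads were trimmed in CLC Genomics Workbench and mapped to hg38 with RaNAseq, and tumor reads were trimmed with Trim Galore and mapped with HISAT2. The counting tool and the separation of species are not given in the sources used here. Counts were tested with edgeR 4.0.16 in R 4.3.3 (TMM, filterByExpr, robust quasi-likelihood test, Benjamini-Hochberg adjustment over all genes tested), after a test on simulated counts. KD was both hairpins against shCtrl in a fit of 2 groups, and fits of 3 groups gave each hairpin. The difference between systems came from 1 fit of 6 groups over genes in both tables. Gene positions and transcript lengths come from GENCODE release 44. In the cultured table, 13 rows had no values and were left out. No pair of replicates was alike within counting noise. The members and the gene lists were chosen with earlier results of these data known. All 10 members were named in every comparison. Of the lists, the genes named were up to 3 per direction with the largest fold in KD against shCtrl among called genes averaging 20 counts or more. Alternatives were other size factors, upper quartile normalization, DESeq2 1.42.0, no filter or at least 10 counts in every library, a replicate block, the mouse ratio and each library left out (for the difference between systems, all but DESeq2 and the minimum of 10 counts were chosen after seeing the data). Totals of 414849 to 1248977 counts per tumor limit members with few counts.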

Additional observations from a re-analysis of the deposited data

Results flagged for a closer look

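The mean effect of the hairpins on ITGA6 differed between tumors and culture by 0.89 on the log2 scale, by a test of the difference itself in edgeR (adjusted p = 0.00266). In culture all 6 KD libraries of ITGA6 lay below every shCtrl library. In tumors 9 of 10 KD libraries lay above the shCtrl mean, a looser measure, and the groups overlapped. In tumors its difference for both hairpins together did not pass (0.50, edgeR adjusted p = 0.205). It was 0.23 with sh#1 (adjusted p = 0.695) and 0.73 with sh#2 (adjusted p = 0.0303), and the sh#2 call was lost with the mouse ratio as a covariate. CDH11 itself was called lower in sh#1 tumors (-1.67, edgeR adjusted p = 0.026) but not in sh#2 tumors (-0.73, adjusted p = 0.347). Of the 8 members tested for the difference between systems only ITGA6 passed, where 11.9% of all genes passed. Sequencing instrument and processing by the authors also changed between the systems and cannot be told apart from them.

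ITGB8 in shCtrl tumor 3 stood apart from its group, at 5.70 CPM against 0 to 0.889 CPM in the other 4 shCtrl tumors, and this value rests on 5 counts. It was the only value to stand apart among 27 tumor groups of the members examined. Chance alone gives such a value in about 1 in 20 groups, so 1 among 27 is near what chance gives.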

How the results depend on the processing

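Of the counts of members called, those with sh#1 against shCtrl in culture, between the hairpins in culture and for KD in tumors stayed within 1.5 times their value under every alternative. For KD in culture, 2 members were called, against 1 with DESeq2, 0 without the low-count filter, 0 with the replicate block (adjusted p = 0.0506 for ITGA6 and 0.0991 for ITGB3), 4 when the hairpins were fitted as separate groups and averaged and 0 to 1 without single libraries. For sh#2 in culture the count was 1 without the filter and 1 to 2 without single libraries. In tumors, sh#1 gave 1 with DESeq2, 1 without the filter and 0 to 1 without single libraries. For sh#2 in tumors the count was 1 with at least 10 counts in every library, 0 with the mouse ratio as a covariate and 0 to 2 without single libraries. Between the hairpins in tumors it was 2 without the filter, 0 with at least 10 counts in every library and 0 to 1 without single libraries. For the difference between systems it was 1 to 2 without single libraries. With at least 10 counts in every library, ITGAV was not tested in tumors, because sh#1 tumor 1 had 9 counts. The cause of the other changes was not tested. No member with an unadjusted p under 0.05 changed sign in an alternative, while values near 0 did, such as ITGB1 for KD in culture (-0.03 to 0.04). The block called ITGB1 lower with sh#1 in culture (0.0473). Replicate numbers did not pair the libraries: deviations of same-numbered libraries correlated at -0.01 to 0.06 in culture and -0.10 to 0.13 in tumors. With 0 to 46 human counts per tumor, ITGA2, ITGB3 and ITGB8 were limited by depth.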
